A study of Mus musculus with 6 samples.

Results

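The complement genes described here are 9 of the 56691 genes in the deposited expression table of mouse inguinal fat, taken by symbol: C1qa, C1qb, C1qc, C4b and C2 of the classical pathway, C3, which all pathways share, Cfb and Cfd of the alternative pathway, and the receptor gene C3ar1. RNA-seq was run on bulk inguinal white adipose tissue, a subcutaneous depot in the groin, from adult male C57BL/6J mice, an inbred laboratory strain, and the labels name no transgene or drug in either group. Housing began at an age of 8 weeks and went on for 8 weeks, either at 4 to 6 mice per cage (group housing, 3 libraries) or at 1 mouse per cage (single housing, 3 libraries). The labels do not say whether group-housed mice shared a cage or whether mice shared a litter, so the p-values measure the spread between these libraries only. By its title the series asks how social isolation acts on this depot and on blood glucose.

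Complement is a cascade of plasma proteins that tags cells and debris for removal. The classical pathway starts when C1q, a protein built from A, B and C chains, binds its target, after which C4 and C2 are cut and form an enzyme that cuts C3. In the alternative pathway factor D cuts factor B, and the enzyme formed from it amplifies the cutting of C3, whose small fragment C3a signals through C3aR1. Fat is known for making factor D itself, which was named adipsin because adipocytes secrete it, while C1q is known as a product of macrophages.

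Libraries held between 21410779 and 35318376 counts assigned to genes. Adipocyte genes marked the tissue as labelled, with Adipoq, the adiponectin gene, at 1031 ± 304 FPKM in group-housed and 1000 ± 188 FPKM in single-housed mice (SD, n = 3). FPKM divides a gene's count by its exon length and by the library total. The 10 skeletal muscle markers summed to 1225 FPKM in group-housed library 2 and to 3478 FPKM in single-housed library 3, against 280 FPKM in group-housed library 1 and 16.8 to 21.3 FPKM in the other 3 libraries. The sum of 7 B and plasma cell markers was lowest in single-housed library 3, at 191 FPKM against 337 to 566 FPKM, as were 5 of the 7 singly, while Jchain was highest there. Liver is the main source of plasma complement, and of its 6 markers Fgb and Ttr were at or near 0, Alb had a mean of 8.17 FPKM and Cyp2e1, also known in adipocytes, had a mean of 501 FPKM over the 6 libraries. Of 6 mesothelial markers Wt1 and Upk3b were listed at 0 in all 6 libraries, and Msln, Upk1b and Krt19 had 0 to 9 counts per library. Lrrn4 had 13 to 57 counts, at 0.16 to 0.29 FPKM under group housing and 0.41 to 0.53 FPKM under single housing. Fold changes below are single minus group housing on the log2 scale, from edgeR's quasi-likelihood test over 18085 genes, with the SE and p-values adjusted by Benjamini-Hochberg over all of them. Among all genes 0 (0%) had an adjusted p below 0.05 in edgeR, 1259 (6.96%) had an unadjusted p below 0.05, and DESeq2 called 179 (0.859%).

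The promoters of the C1q genes and of C3 are shown because these transcripts followed different patterns across the libraries, as described below. Of the 9 genes, 5 had an entry in the RefSeq promoter table (build GRCm38.p6), which differs from the build of the deposited table. The 250 bases before the transcript start are given 5′ to 3′ along the gene, on the minus strand, at chr4:136886201-136886450 for C1qb, chr4:136892915-136893164 for C1qc and chr17:57228137-57228386 for C3. Capitals mark letters matching, on either strand, the core of the C/EBP site (TTNNGNAA), of the NF-kB site (GGG and CC, spaced by any 5 bases) or of the site of PU.1 (GAGGAA), a transcription factor of myeloid cells.
C1qb: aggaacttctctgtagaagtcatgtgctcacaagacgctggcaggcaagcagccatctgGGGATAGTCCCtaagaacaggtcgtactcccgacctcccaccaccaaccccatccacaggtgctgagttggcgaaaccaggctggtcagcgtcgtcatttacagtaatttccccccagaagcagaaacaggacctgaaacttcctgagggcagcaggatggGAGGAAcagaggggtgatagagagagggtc
C1qc: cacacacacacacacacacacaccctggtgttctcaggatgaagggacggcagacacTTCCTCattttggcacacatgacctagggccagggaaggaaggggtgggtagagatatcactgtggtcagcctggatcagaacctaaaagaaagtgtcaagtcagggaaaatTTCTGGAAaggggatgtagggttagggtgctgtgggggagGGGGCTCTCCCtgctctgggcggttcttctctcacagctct
C3: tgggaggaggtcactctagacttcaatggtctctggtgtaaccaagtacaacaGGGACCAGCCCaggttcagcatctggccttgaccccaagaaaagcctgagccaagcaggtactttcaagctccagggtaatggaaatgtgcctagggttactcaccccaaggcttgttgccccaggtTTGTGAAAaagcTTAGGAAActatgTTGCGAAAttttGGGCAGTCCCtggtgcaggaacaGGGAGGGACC

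Both C1q promoters held 1 match to the PU.1 core, which 23.3% of the 32851 promoters of the table held in the same window, and the promoters of C3, Cfd and C3ar1 held 0. The C3 promoter held the C/EBP core at 3 positions, from -70 to -38 relative to the start, counting once a position that matched on both strands. That core was in 36.8% of all promoters, in C1qc and in none of C1qb, Cfd and C3ar1. The NF-kB core was present in all 5 promoters and in 45.8% of the table, and some of its matches overlapped each other. The interferon-stimulated response element (GAAA and GAAA, spaced by any 2 bases) and the STAT site (TTCNNNGAA), held by 2.98% and 7.02% of all promoters, were in 0 of the 5. These are matches of letters in a short window and not measured binding.

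Factor D dominated the complement transcripts of this depot. On the FPKM scale Cfd had a mean of 3883 over the 6 libraries, rank 7 of all genes in the table, and exceeded C3, the next of the 9, by 11.1 to 27.4 times within a library. C3 followed at 213 FPKM and stood above C4b (93.7 FPKM) in 6 of 6 libraries. The ranges of C4b, C1qa (72.7 FPKM) and C1qb (66.8 FPKM) overlapped, so their order was not resolved beyond the spread. C1qc stood at 32.5 FPKM, below C1qb in 6 of 6 libraries. C2 (10.1 FPKM) and Cfb (8.90 FPKM) overlapped each other, and C3ar1 was lowest at 2.40 FPKM. Together the 9 genes took 0.599% ± 0.152 of a group-housed library's counts and 0.501% ± 0.0724 of a single-housed one's (SD, n = 3). Without Cfd the shares were 0.205% ± 0.0448 and 0.178% ± 0.0232, and in both cases the groups differed by less than the SD of the group-housed libraries.

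**Figure D1:**
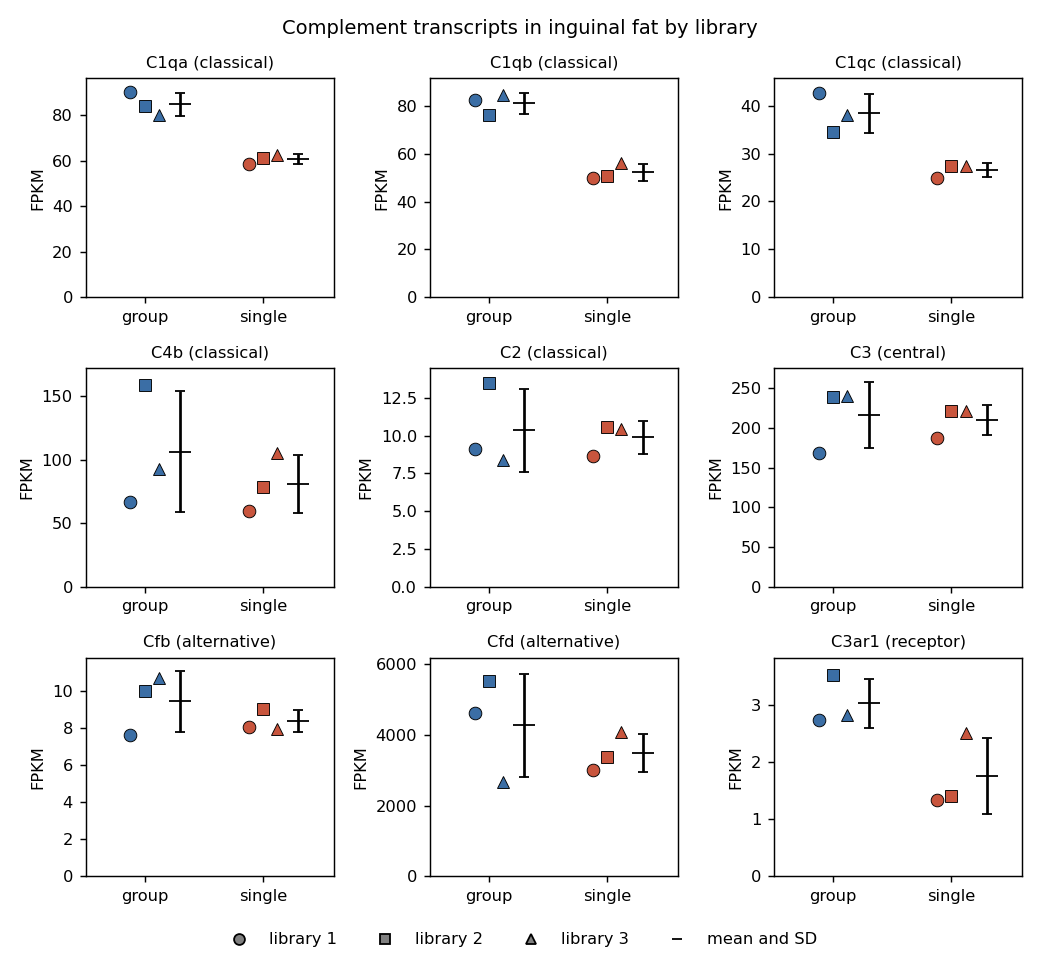
FPKM of the 9 complement genes (y axis, from 0) in group-housed (blue) and single-housed (red) libraries, with the library number as the symbol and the mean and SD (n = 3) in black. C1qa, C1qb, C1qc and C3ar1 lay lower in all 3 single-housed libraries, while the groups overlapped for C4b, C2, C3, Cfb and Cfd. For C3ar1 the groups overlapped after TMM normalization, which is not shown here.

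The 3 chains of C1q, the recognition protein of the classical pathway, had lower levels in single-housed mice, by about the same factor, without passing the threshold over all genes. C1qa (ENSMUSG00000036887; mm39 chromosome 4, 136623228 to 136626114) stood at 89.9, 84.0 and 80.0 FPKM in libraries 1, 2 and 3 of the group-housed mice, versus 58.4, 61.3 and 62.4 FPKM in those of the single-housed mice; values below keep this order. Every single-housed value lay below every group-housed value. Its log2 fold change was -0.39 ± 0.13 (SE, 95% interval -0.69 to -0.09; edgeR unadjusted p = 0.0173, adjusted p = 0.612). C1qb (chromosome 4, 136607440 to 136613498) stood at 82.8, 76.5 and 84.6 FPKM under group housing and at 50.0, 50.8 and 56.3 FPKM under single housing. It had the smallest p of the 9 genes, rank 153 of all genes tested, and its levels did not overlap between groups. The log2 fold change was -0.54 ± 0.13 (95% interval -0.83 to -0.24; edgeR unadjusted p = 0.003525, adjusted p = 0.415). C1qc (chromosome 4, 136617115 to 136620376) stood at 42.6, 34.6 and 38.0 FPKM in group housing, versus 25.0, 27.5 and 27.4 FPKM, again with no overlap. Its log2 fold change was -0.44 ± 0.13 (95% interval -0.73 to -0.14; edgeR unadjusted p = 0.0102, adjusted p = 0.577). As fold differences, single-housed levels were 0.763, 0.689 and 0.739 of the group-housed ones for C1qa, C1qb and C1qc.

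Of the 9 genes 0 passed in edgeR and 0 in DESeq2, and 3, the C1q genes, had an edgeR unadjusted p below 0.05, all lower in single housing, where 3.47% of all genes tested did so. DESeq2 gave 4 of the 9 an unadjusted p below 0.05, all lower, beside 2.13% of all genes, C3ar1 being the additional gene. The same 3 C1q genes were the ones whose single-housed libraries all lay below the group-housed ones in TMM-normalized log2 CPM, as 6.78% of all genes did. They are not separate observations: the 3 genes lie within 18.7 kb on chromosome 4, their protein chains are used together, and their levels correlated with r from 0.94 to 0.95 over the 6 libraries. The ratio of C1qa to C1qb FPKM stayed between 0.946 and 1.21, and that of C1qa to C1qc between 2.11 and 2.43. They were also the genes of the 9 that varied least within each group, with coefficients of variation of FPKM from 3.40% to 10.6%. For Cfd these were 34.4% in group housing and 15.6% in single housing, and for C4b 44.8% and 28.0%.

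C3ar1, the receptor for C3a on myeloid cells (ENSMUSG00000040552; chromosome 6, 122824097 to 122833120), had the largest fold change of the 9 but overlapped between groups. It stood at 2.75, 3.53 and 2.83 FPKM under group housing and at 1.34, 1.41 and 2.52 FPKM under single housing, from 130 to 414 counts per library. On the FPKM scale all single-housed values lay below the group-housed ones, but after TMM normalization single-housed library 3 (3.61 log2 CPM) stood above group-housed libraries 1 and 3 (3.53 and 3.49). The log2 fold change was -0.68 ± 0.33 (95% interval -1.46 to 0.09; edgeR unadjusted p = 0.0748, adjusted p = 0.758). Without single-housed library 3, the one richest in muscle transcripts, it was -1.12, and C3ar1 still did not pass. Neutrophils also carry this receptor, and 0 of 5 neutrophil markers tested passed in edgeR, while 4 had an unadjusted p below 0.05, all with lower levels in single housing (3.47% of all genes). DESeq2 called S100a8, S100a9 and Csf3r, all lower, beside 0.859% of all genes. The listed marker that was not tested in edgeR, Ly6g, had 0 to 6 counts per library (DESeq2 log2 fold change 0.52). The neutrophil list had a summed level of 24.3 to 74.5 FPKM against 7.90 to 18.7 FPKM. The part of neutrophils in the C3ar1 difference was not tested.

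When edgeR took the muscle markers' mean log2 CPM as a covariate, C1qa, C1qb, C1qc and C3ar1 all passed, at adjusted p = 0.0278, 0.0126, 0.0361 and 0.0326, with log2 fold changes of -0.39, -0.54, -0.44 and -0.74. These 4 of 9 stood beside 2.82% of all genes called lower and 5.26% called in either direction by the same fit. Without group-housed library 2 and its single-housed counterpart richest in muscle transcripts, 0 of the 9 passed, beside 0.117% of all genes. The other 5 genes did not pass in either fit. The calls thus rest on the covariate, while the fold changes of the 3 C1q genes were about the same with and without it.

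**Figure D2:**
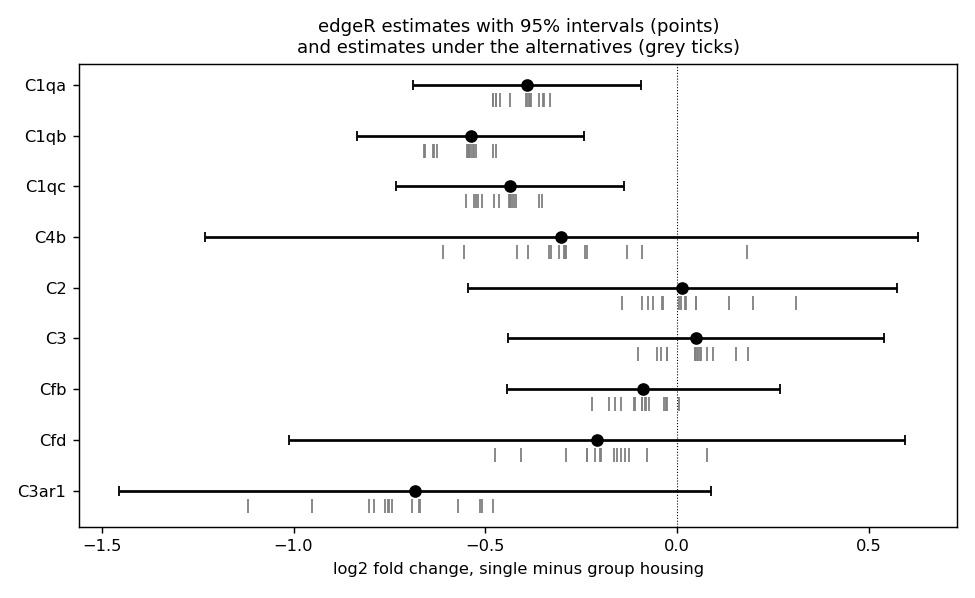
Log2 fold change of each complement gene (x axis, single minus group housing) from edgeR with its 95% interval (black), and the estimates under 15 alternatives (grey ticks). The C1q genes stay below 0 in every alternative shown, with C1qa from -0.48 to -0.33 and C1qb from -0.66 to -0.47, while the ticks of C4b, C2, C3, Cfb and Cfd lie on both sides of 0.

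Of 17 macrophage and monocyte markers 0 passed in edgeR, and 13 had a log2 fold change below 0 (median -0.32). An unadjusted p below 0.05 was found for 6, all with lower levels in single housing, beside 3.47% of all genes, and 6 had single-housed libraries all below the group-housed ones, beside 6.78% of all genes. The median over all genes tested was -0.01. Their summed level was 821 to 1307 FPKM under group housing and 589 to 928 FPKM under single housing, most of it from Lyz2, the lysozyme gene (631 to 1063 and 426 to 737 FPKM). Without Lyz2 the sums were 190.1 to 247 and 163 to 191 FPKM, and the groups overlapped. The mean log2 CPM of the 17 markers, in which each gene counts alike, did not overlap. It was 5.23 to 5.27 under group housing and 4.58 to 4.97 under single housing. Fcgr1, an Fc receptor of monocytes and macrophages, stood at 6.24 ± 1.69 and 1.62 ± 0.34 FPKM, and Itgam, the integrin CD11b and a subunit of complement receptor CR3, at 6.86 ± 1.24 and 3.16 ± 0.12 FPKM (SD, n = 3 each). The lowest log2 fold changes of the 17 were -1.95 for Trem2 (10 to 74 counts per library) and -1.85 for Fcgr1. These genes weigh most on the difference in mean log2 CPM. Of the 17 markers DESeq2 called Fcgr1, Itgam, Ccr2 and Trem2, all lower in single housing, beside 0.859% of all genes. Csf1r, the receptor for the growth factor of macrophages, stood at 17.3 ± 1.65 and 17.6 ± 1.49 FPKM, and Folr2, Mertk and Timd4 also had log2 fold changes above 0 (0.36, 0.05 and 0.06). The ratio of C1qa to Csf1r FPKM was 4.34 to 5.46 under group housing and 3.17 to 3.75 under single housing, whereas the ratios of C1qa to Adgre1, Mrc1 and Cd68, other macrophage genes, overlapped between groups. In bulk tissue fewer cells of a type and less RNA per cell cannot be told apart, and the part of macrophage content in the C1q difference was not tested. Of 18 genes induced by interferon 0 passed in edgeR and 16 had an unadjusted p below 0.05, all with lower levels in single housing (3.47% of all genes). For 17 the single-housed libraries all lay below the group-housed ones (6.78% of all genes). DESeq2 called Isg15, Irf7, Oas1a, Oas2, Oas3, Ifit1, Ifit3, Mx1, Bst2, Ifi44 and Usp18, all lower, beside 0.859% of all genes. The summed level of the 18 genes was 323 to 450 FPKM against 184 to 221 FPKM. Of 12 adipose progenitor and fibroblast markers 10 lay below 0 (median -0.25) and 0 passed in edgeR. An unadjusted p below 0.05 was found for 2 of them, with lower levels in single housing (3.47% of all genes). Endothelial and adipocyte markers had fold changes of the other sign. All 6 endothelial markers lay above 0 (median 0.52) and 0 passed, while 3 had an unadjusted p below 0.05 with higher levels (3.49% of all genes) and 4 had single-housed libraries all above the group-housed ones (6.61% of all genes). Of 12 adipocyte markers 11 lay above 0 (median 0.30), with 0 passing and 0 having an unadjusted p below 0.05. The part of these lists in the C1q difference was not tested.

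**Figure D3:**
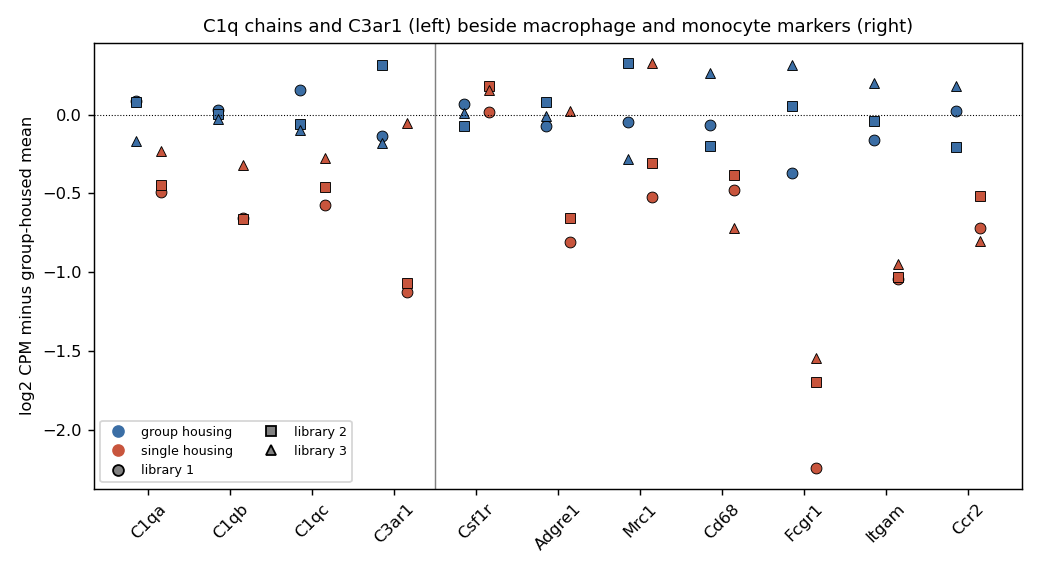
Log2 CPM of each library minus the mean of the group-housed libraries (y axis) for the C1q genes and C3ar1 and for 7 macrophage and monocyte markers, in group housing (blue) and single housing (red), with the library number as the symbol. The single-housed libraries lie below 0 for all 3 C1q genes (-0.66 to -0.23), and the 3 lie above 0 for Csf1r (0.02 to 0.18).

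For the later components of the classical pathway, C4b and C2, the groups overlapped and no difference was detected. Their fold changes were not tested against those of C1q, and both 95% intervals contain the 3 C1q estimates. C4b, the gene of complement C4 (ENSMUSG00000073418; chromosome 17, 34947354 to 34962856), stood at 66.5, 159 and 93.2 FPKM under group housing and at 60.0, 78.3 and 105 FPKM under single housing. The groups overlapped, and group-housed library 2 was the highest of all 6. Its log2 fold change was -0.30 ± 0.39 (95% interval -1.23 to 0.63; edgeR adjusted p = 0.899), and it was 0.18 without group-housed library 2 and -0.61 without single-housed library 3. The sum of 12 adipose progenitor and fibroblast markers was also highest in group-housed library 2, although only 6 of the 12 were highest there singly. This sum was 576, 778 and 554 FPKM under group housing and 358, 408 and 540 FPKM under single housing. The groups did not overlap on this scale, which carries no composition factor. In TMM-normalized log2 CPM 0 of the 12 had single-housed libraries all below the group-housed ones, beside 6.78% of all genes. The part of these markers in the C4b level was not tested. The near-identical gene C4a had 36 to 86 counts per library, against 8350 to 19938 for C4b, and reads that match both could be split between them. C2, the protease that C4b binds (ENSMUSG00000024371; chromosome 17, 35081580 to 35117241), stood at 9.12, 13.5 and 8.41 FPKM in group housing, versus 8.63, 10.6 and 10.5 FPKM, also highest in group-housed library 2. Its log2 fold change was 0.01 ± 0.24 (95% interval -0.55 to 0.57; edgeR adjusted p = 0.991).

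C3, the protein on which all pathways converge (ENSMUSG00000024164; chromosome 17, 57510970 to 57535136), stood at 168, 240 and 241 FPKM under group housing and at 188, 221 and 221 FPKM under single housing. The lowest and the highest value were both group-housed. The log2 fold change was 0.05 ± 0.21 (95% interval -0.44 to 0.54; edgeR adjusted p = 0.967). As a fold this interval runs from 0.737 to 1.45, so a change of either sign within it is not excluded by these libraries.

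In the alternative pathway, factor B and factor D gave no detectable difference. Cfb (ENSMUSG00000090231; chromosome 17, 35075350 to 35081494) stood at 7.61, 9.99 and 10.7 FPKM under group housing and at 8.07, 9.04 and 7.96 FPKM under single housing, with all single-housed values inside the group-housed range. Its log2 fold change was -0.09 ± 0.15 (95% interval -0.44 to 0.27; edgeR adjusted p = 0.924). The readthrough gene Gm20547 overlaps both Cfb and C2 on the same strand and is listed at 0 in all 6 libraries, and C2 also overlaps Zbtb12 (1148 counts over the 6 libraries) on the opposite strand, so the values of C2 and Cfb are uncertain to that extent. Cfd (ENSMUSG00000061780; chromosome 10, 79726687 to 79728489) stood at 4609, 5539 and 2663 FPKM under group housing and at 3020, 3376 and 4090 FPKM under single housing. The group-housed libraries held the highest and the lowest level, a spread of more than the distance between the group means (4270 ± 1468 versus 3495 ± 545 FPKM, SD, n = 3). The log2 fold change was -0.21 ± 0.34 (95% interval -1.01 to 0.59; edgeR adjusted p = 0.920), and it was 0.08 without group-housed library 2 and -0.48 without group-housed library 3.

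Within each group the libraries had the same order for Cfd as for the sum of 12 adipocyte markers, and 8 of the 12 had that order singly (not Lep, Plin1, Slc2a4 and Acaca). The summed level was 6026, 6900 and 4071 FPKM in the group-housed libraries and 5140, 5522 and 6920 FPKM in the single-housed ones. Group-housed library 3 was thus lowest of all in both, while single-housed library 3 had the highest sum with a Cfd level below group-housed libraries 1 and 2. The ratio of Cfd to Adipoq FPKM was 4.18, 4.28 and 3.82 under group housing and 3.67, 3.44 and 3.42 under single housing. It varied far less than either level, and the groups did not overlap, although 3 libraries against 3 cannot reach a two-sided exact p below 0.1. This was 1 of 8 ratios within libraries, of which those of C1qa to Csf1r and of C1qa to C1qb also had groups apart. For Adipoq itself the log2 fold change was 0.04 ± 0.31 (adjusted p = 0.982 in edgeR).

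Over the 6 libraries the 9 transcripts were alike in different sets, as Pearson's r of log2 CPM shows. C3ar1 went with the C1q genes (r from 0.80 to 0.90). C3, Cfb and C4b went with each other (r from 0.79 to 0.87), but C4b was also like C2 (r = 0.83) and C3ar1 (r = 0.73), so the sets were not separate, and the C1q genes were unlike C3 and Cfb (r from -0.18 to 0.23). Cfd was most like C2 (r = 0.84) and was unlike C3 and Cfb (r = 0.22 and 0.06). These are descriptions over 6 points that share library composition, muscle content included.

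**Figure D4:**
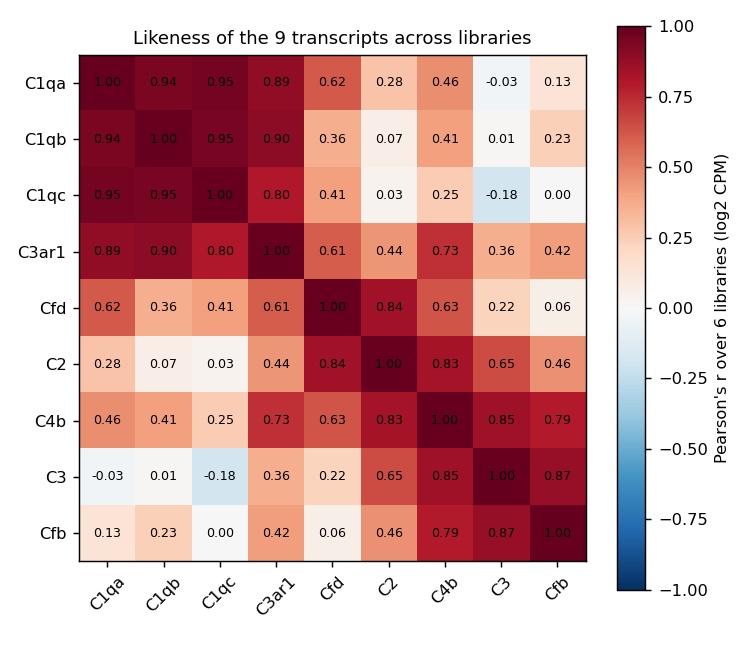
Pearson's r of log2 CPM over the 6 libraries for each pair of the 9 complement genes, from -1 (blue) to 1 (red). The C1q genes and C3ar1 form a block with r of 0.80 or above, and C4b, C3 and Cfb another with r from 0.79 to 0.87, although C4b also has r = 0.83 with C2.

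Among 7706 other genes with a mean level of at least 5 FPKM, those most like each gene were named by the highest r. For C1qa they were Tmed3, Tceal9, S100a6 and Metrnl (r from 0.98 to 0.99), all with lower levels in single housing (log2 fold changes of -0.45, -0.41, -1.17 and -0.67). For C3 they were Slc39a10, Ccdc181, Dennd4c and Mia3, and for Cfb Ddi2, Adap2, Copa and Ralgds (r from 0.97 to 0.99 for both). For C4b they were Surf4, Col4a1, Tnfrsf1a and Dram1 (r = 0.99), and for Cfd Txnl4a, Hrct1, Bloc1s1 and Ddx50 (r from 0.99 to 1.00). With so many candidates and 6 libraries, values this high do not set these genes apart from others.

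Beyond the 9 genes, 50 further genes of the complement system were listed, of which 34 were measured well enough to be tested. In this wider list 0 passed in edgeR and 5 of 34 had an unadjusted p below 0.05, beside 6.96% of all genes. Of these, 3 were lower (3.47% of all genes) and 2 higher (3.49%) in single housing. The median log2 fold change of the list was -0.03, near the -0.01 of all genes. DESeq2 called 3 of the 47 listed genes to which it gave a p (Itgam and Colec12 lower, Cpn2 higher), beside 0.859% of all genes. With the muscle covariate edgeR called 8 of 34, 6 lower and 2 higher, beside 5.26% of all genes.

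Among initiators, C1s1 and C1ra, the proteases bound to C1q, had levels of 84.1 ± 7.99 versus 78.2 ± 8.98 FPKM, and of 28.5 ± 2.97 versus 24.8 ± 2.75 FPKM, in group versus single housing (SD, n = 3), with log2 fold changes of -0.02 ± 0.18 and -0.11 ± 0.17. They have close copies, C1s2 and C1rb, between which reads could be split. Colec12, a scavenger receptor of the collectin family, stood at 5.85 ± 0.90 and 3.71 ± 0.53 FPKM with no overlap (log2 fold change -0.57 ± 0.12, edgeR adjusted p = 0.344, DESeq2 adjusted p = 0.0426). Cfp, which encodes properdin, the stabilizer of the alternative C3 convertase, stood at 48.4, 35.6 and 49.8 FPKM under group housing and at 30.6, 32.5 and 26.3 FPKM under single housing. All 3 single-housed libraries lay below the group-housed ones (log2 fold change -0.49 ± 0.12, edgeR unadjusted p = 0.00542, adjusted p = 0.470). C7, a component of the membrane attack complex, stood at 4.61 ± 1.91 and 8.56 ± 6.14 FPKM, its high mean in single housing resting on library 3 (15.6 FPKM).

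Of the regulators, Clu (clusterin) and Serping1 (the C1 inhibitor) had the highest levels, 108 ± 36.4 and 89.1 ± 34.8 FPKM and 54.1 ± 2.65 and 54.4 ± 12.2 FPKM, with overlapping groups. Cpn2, the regulatory subunit of the carboxypeptidase that inactivates C3a, was low, at 0.40, 0.60 and 0.56 FPKM under group housing and 1.14, 1.08 and 1.01 FPKM under single housing. It had the largest positive log2 fold change of the wider list (1.14 ± 0.23, edgeR adjusted p = 0.344, DESeq2 adjusted p = 0.004021). Cpn1, the gene of another subunit of that carboxypeptidase, had 0 to 4 counts per library and was not tested in edgeR. Vtn, the gene of vitronectin, stood at 7.71 ± 0.75 and 9.21 ± 1.44 FPKM (log2 fold change 0.34 ± 0.13, edgeR adjusted p = 0.669). Among 10 receptors and binding proteins 9 lay below 0, with a median of -0.39, beside 9393 of all 18085 genes tested and their median of -0.01. Itgam, which is also in the macrophage list and overlaps Gm49368 (53 counts over the 6 libraries), had the smallest p, with levels of 6.08, 6.21 and 8.29 FPKM against 3.18, 3.27 and 3.04 FPKM (log2 fold change -1.02 ± 0.13, edgeR adjusted p = 0.120, DESeq2 adjusted p = 5.10e-06). C5ar1 and C5ar2, receptors for the fragment C5a, had log2 fold changes of -0.73 ± 0.40 and -0.46 ± 0.22. Calr (calreticulin, which binds C1q) and Itgb2 (the partner chain of Itgam) had the highest levels, 229 ± 33.4 and 179 ± 3.42 FPKM and 37.9 ± 12.8 and 27.7 ± 11.2 FPKM.

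**Figure D5:**
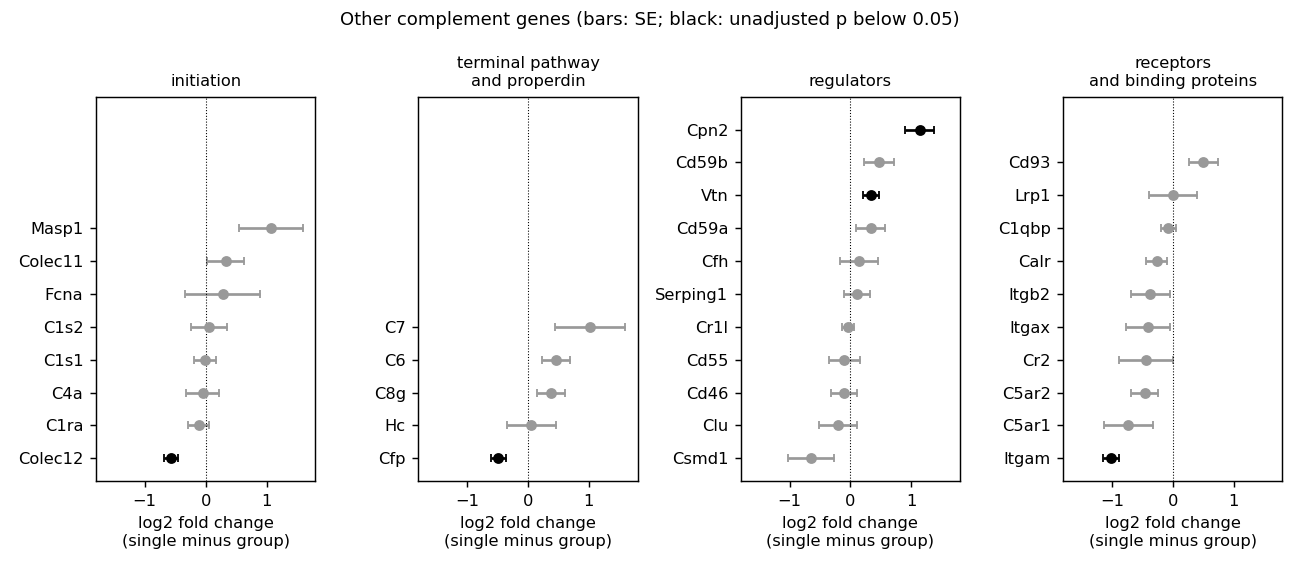
Log2 fold change (x axis, single minus group housing, edgeR, bars: SE) of the 34 tested genes of the wider complement system, by role. The 5 genes with an unadjusted p below 0.05 are black (Colec12, Cfp and Itgam below 0, Vtn and Cpn2 above 0), and the others are grey.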

How the data were processed

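Per the labels' protocols, total RNA from frozen inguinal fat was extracted with TRIzol, treated with DNase I and column-purified, and libraries were made by Genewiz's protocol. The submitters' processing notes name build mm39. For aligner, counter, annotation release and strand use, the sources used here give nothing. The deposited table holds the authors' raw, unnormalized counts per gene (per the file headers) and FPKM, which equalled the authors' counts divided by exon length and library total in 100% of values within 0.0051, so they carry no composition factor. A second deposited sheet held the same counts, with 0 differences. A further 24 columns of values, named for other tissues, were not used here. Levels are deposited FPKM as mean ± SD of 3 libraries. No value was dropped or imputed.

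The main test on counts was that of edgeR 4.0.16 in R 4.3.3: filterByExpr, TMM, quasi-likelihood F test, two-sided, Benjamini-Hochberg over 18085 genes, threshold 0.05. The SE is the size of the log2 fold change over the root of F, and the 95% interval uses a t distribution with 7.09 degrees of freedom. Alternatives used DESeq2 1.42.0, limma 3.58.1 on log2(FPKM + 1) and log2(FPKM + 0.1) of genes with a mean of at least 0.1 FPKM, other scalings, no filter, left-out libraries, a replicate block and a muscle covariate. Motifs were searched in 250 bases upstream of each RefSeq promoter entry. The 9 genes, the gene lists and the muscle alternatives were chosen with earlier results of these data known. The text names all 9 genes, wider-list genes with an unadjusted p below 0.05, the 2 of highest mean FPKM in each wider list, the 4 genes of highest r with C1qa, C3, C4b, Cfb and Cfd, and Adipoq and Ucp1 as references. Ucp1, the heat-producing uncoupling protein, stood at 54.1 ± 4.65 and 219 ± 50.6 FPKM. Other genes and ratios were named after their values were seen.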

Additional observations from a re-analysis of the deposited data

How the results depend on the processing

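C1qa, C1qb, C1qc and C3ar1 stayed below 0 in all 15 alternatives. Leaving out each library in turn gave log2 fold changes of -0.47 to -0.33 for C1qa, -0.66 to -0.47 for C1qb, -0.52 to -0.35 for C1qc and -1.12 to -0.48 for C3ar1, none of them past the threshold, with 0 of the 9 genes passing in each case. The other 5 genes changed sign in some alternatives and passed in none. Library totals without a composition factor gave -0.064 for C2 and -0.042 for C3, limma on log2(FPKM + 1) gave -0.037 and -0.027, and limma on log2(FPKM + 0.1) gave -0.038 and -0.027. The median over all genes shifted to -0.10 with library totals and to -0.06 and -0.10 in the limma fits. Leaving out each library in turn ranged from -0.14 to 0.31 for C2, -0.10 to 0.18 for C3, -0.61 to 0.18 for C4b, -0.22 to 0.01 for Cfb and -0.48 to 0.077 for Cfd, with Cfb at 0.0055 without group-housed library 2. The cause of these changes was not tested.

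The count of the 9 genes called lower was 4 with the muscle covariate and 0 in the other alternatives, and the count called higher was 0 throughout. In the wider list of 50 genes the count was 1 without a filter on low counts, 3 in DESeq2 and 8 with the muscle covariate. Over all genes the counts were 53 without a filter, 179 in DESeq2, 22 without both muscle-rich libraries (group-housed 2, single-housed 3), and 951 with the muscle covariate. The replicate block, fitted although same-numbered libraries did not deviate together (correlations of 0.12, -0.56 and -0.70), gave 0 calls among the 9 genes and 0 over all genes, with log2 fold changes of -0.39, -0.55 and -0.44 for C1qa, C1qb and C1qc. With 3 libraries a group, the intervals of C4b, Cfd and C3ar1 span more than 1.5 log2 units and limit what can be said of them.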
